A study of Rattus norvegicus with 9 samples.

Results

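The NADPH oxidase subunits described here are 6 genes taken by symbol from the authors' count and FPKM tables: Cybb, Cyba, Ncf1, Ncf4 and Rac2 of the phagocyte oxidase, and Nox4, the catalytic subunit of a separate oxidase. They are 6 of the 22589 genes listed, and all 6 passed the filter on low counts that left 14520 genes to test. RNA came from the left tibias of female Sprague-Dawley rats, 3 rats in each of 3 groups of 6. The RE/Ovx group had both ovaries removed and climbed a ladder for 12 weeks, after 2 weeks of training to adapt, with a tail load that reached 100% of body weight. The NE/Ovx group had the same operation and no exercise, and in the Sham group only a little fat beside the ovary was taken. The rats arrived at 9 weeks of age, had 1 week to adapt before the operation, and were sampled 24 weeks after it. RE/Ovx against Sham therefore differs by ovariectomy and exercise together, and each group enters a pair of the 3 comparisons.

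The phagocyte oxidase transfers electrons from NADPH across a membrane to oxygen and so makes superoxide, which neutrophils and macrophages use to kill microbes. Its membrane core is a pair of proteins, the catalytic NOX2 encoded by Cybb and the partner chain encoded by Cyba. When a phagocyte is stimulated, cytosolic proteins, those encoded by Ncf1 and Ncf4 among them, and the small GTPase Rac2 join this core and switch it on. NOX4 also pairs with the Cyba protein, needs none of the cytosolic proteins, and releases mainly hydrogen peroxide. In bone, reactive oxygen species from NADPH oxidases have been linked to osteoclast formation, and neutrophils, which carry most of the phagocyte enzyme, are made in the marrow.

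The bones had been cleared of skin, muscle, ligament and tendon, and the libraries held markers of bone, cartilage and marrow cells together. Markers of skeletal muscle were present too, with summed levels of 1866 to 3087 CPM in RE/Ovx, 4400 to 5143 CPM in NE/Ovx and 1706 to 5500 CPM in Sham tibias. All 10 were lower in RE/Ovx than in NE/Ovx (median log2 fold change -0.97), the 2 ranges did not overlap, and none passed in edgeR; the part of muscle RNA in the subunits' values was not tested. In such bulk RNA, fewer cells of a type and less RNA per cell cannot be told apart. Counts summed to between 12297992 and 16671533 per rat. Osteoblast markers were abundant in every rat, with summed levels of 18294 to 29034 CPM in RE/Ovx, 16391 to 26856 CPM in NE/Ovx and 6936 to 9779 CPM in Sham tibias. The neutrophil marker list summed to 4039 to 6269 CPM in RE/Ovx, 5676 to 6468 CPM in NE/Ovx and 7700 to 12474 CPM in Sham tibias. RE/Ovx rat 5 stood lowest on that list, and Sham rat 7 highest. CPM scale a count by the library's TMM-adjusted total. FPKM, used for levels, divide by gene length and carry another scaling of the library. Cybb, for example, was at 135 FPKM and 222 CPM in RE/Ovx rat 8, and at 200 FPKM and 357 CPM in Sham rat 7. Groups can therefore overlap in 1 unit and not in the other.

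RefSeq promoter entries of the assembly GRCr8 were found for 4 of the 6 members, and they are shown because the phagocyte genes among them had fold changes of one sign in every comparison while Nox4 had the opposite sign. Each line gives the bases before the outermost annotated start, 5′ to 3′ on the gene's own strand, with motif matches in capitals. Ncf4 and Rac2 are named only.
Cybb, chrX:16065066-16065315, minus strand: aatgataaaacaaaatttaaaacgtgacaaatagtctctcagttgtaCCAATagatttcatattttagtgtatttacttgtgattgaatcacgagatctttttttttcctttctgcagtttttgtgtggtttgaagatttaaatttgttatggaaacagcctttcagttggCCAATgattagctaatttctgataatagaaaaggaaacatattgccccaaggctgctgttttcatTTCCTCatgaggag
Cyba, chr19:67404215-67404464, minus strand: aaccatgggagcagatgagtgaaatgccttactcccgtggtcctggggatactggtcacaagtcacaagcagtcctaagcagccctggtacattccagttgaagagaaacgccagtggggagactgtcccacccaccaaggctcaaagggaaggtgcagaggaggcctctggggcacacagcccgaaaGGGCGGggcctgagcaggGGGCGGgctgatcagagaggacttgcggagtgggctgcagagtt
Ncf1, chr12:28121635-28121815, plus strand: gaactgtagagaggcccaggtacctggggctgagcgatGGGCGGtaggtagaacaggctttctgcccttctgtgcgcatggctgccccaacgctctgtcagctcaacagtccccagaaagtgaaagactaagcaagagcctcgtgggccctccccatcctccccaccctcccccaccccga
Nox4, chr1:150313639-150313735, plus strand: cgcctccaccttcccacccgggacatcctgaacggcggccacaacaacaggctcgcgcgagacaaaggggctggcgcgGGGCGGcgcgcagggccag

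Each 300-base window of the table, 250 bases before and 50 after a start, was searched on both strands for 5 motifs, and no matches overlapped in the members. The core of PU.1 sites, GAGGAA, was in 27.6% of the 33469 windows of all genes. The CCAAT box, spelled as its name, was in 37.5%. The GC box, GGGCGG, was in 33.1%. The AP-1 site, TGACTCA, was in 4.63% and had no match in the windows of the 4 members. The TATA box, TATAAA, was in 14.2% and had none there either. The Cybb window held a GAGGAA match on the minus strand, read as TTCCTC and ending 8 bases before the start, and CCAAT ending 198 and 74 bases before it. The Cyba window held GGGCGG ending 56 and 38 bases before the start, and the Ncf1 window held it ending 137 bases before. The Nox4 window held GGGCGG ending 13 bases before the outermost start and once more beyond that start, outside the printed bases. The Cybb window was 35.7% GC, and only 5.29% of all windows had less. Cyba was at 61% GC and Ncf1 at 59.7%, above 76.1% and 72.9% of all windows, and Nox4 at 73%, above 95.1%. These matches are a description of letters and were not tested against the expression values.

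On the length-scaled FPKM level, the phagocyte subunits were abundant transcripts of the tibia. Over the 9 rats Rac2 averaged 173 FPKM and ranked 244 of the 18423 genes with any count. Cybb averaged 142 FPKM (rank 308), Ncf1 102 FPKM (rank 452), Cyba 72 FPKM (rank 719) and Ncf4 39.5 FPKM (rank 1634). Nox4 averaged 0.913 FPKM and ranked 12684. The order of levels among the phagocyte subunits by group mean, Rac2 highest and then Cybb, Ncf1, Cyba and Ncf4, was the same in the 3 groups.

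**Figure D1:**
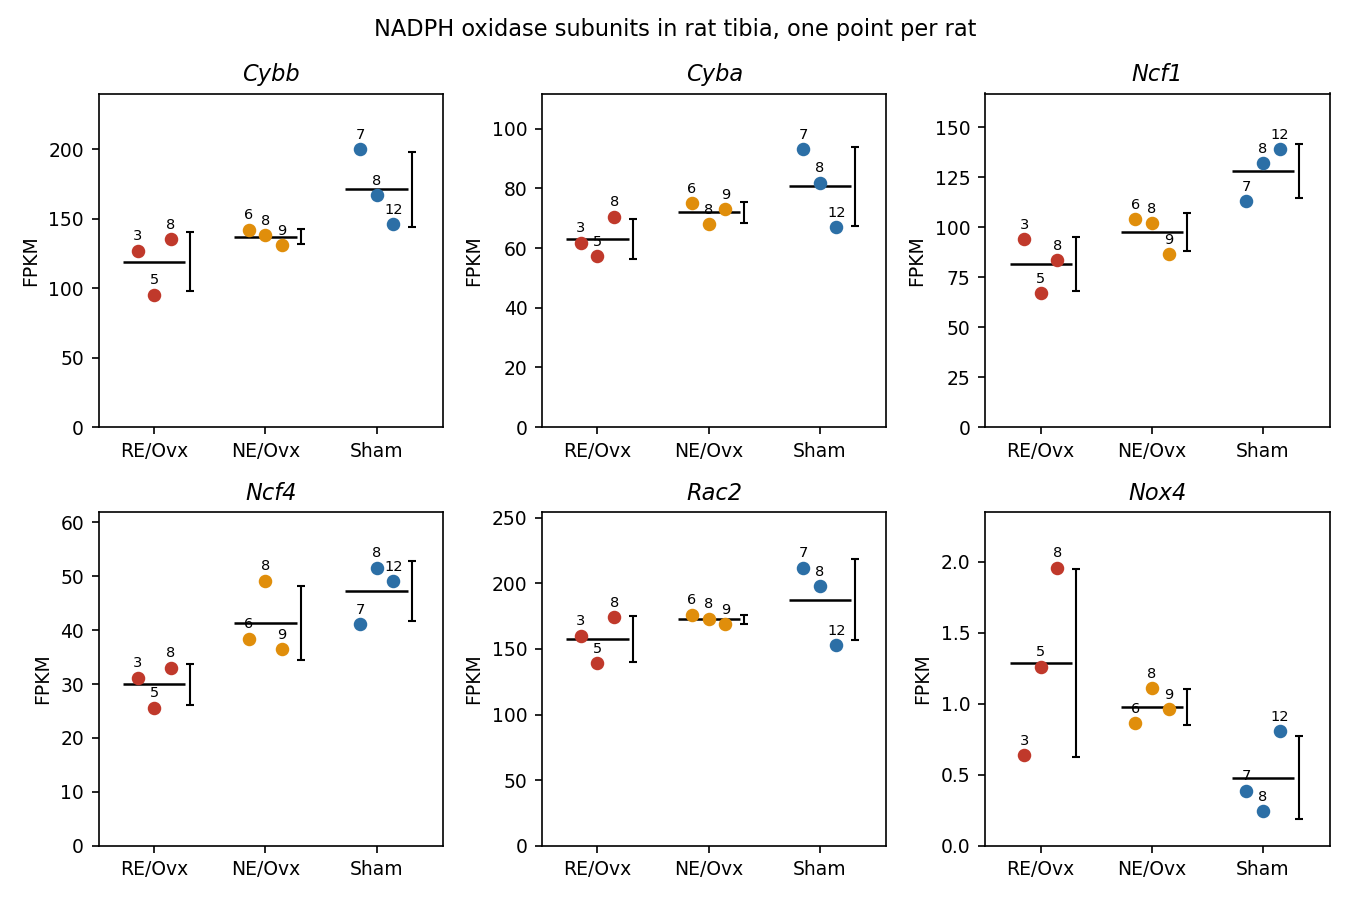
FPKM of the 6 subunits in each rat, with the rat's number above its point, the group mean as a line and the SD (n = 3) as a bar; groups run RE/Ovx, NE/Ovx, Sham and each panel has its own axis from 0. The means of the 5 phagocyte subunits are lowest in RE/Ovx and highest in Sham, RE/Ovx rat 5 is the lowest rat in each of these panels, and Nox4 runs the other way with wide spread in RE/Ovx and Sham.

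Cybb encodes the catalytic core of the phagocyte enzyme. It was at 127, 95.2 and 135 FPKM in RE/Ovx rats 3, 5 and 8, 142, 138 and 131 FPKM in NE/Ovx rats 6, 8 and 9, and 200, 167 and 146 FPKM in Sham rats 7, 8 and 12. Every RE/Ovx and NE/Ovx rat was below every Sham rat. Cybb fell in RE/Ovx against Sham, with a log2 fold change of -0.59 (SE 0.15, 95% interval -0.91 to -0.27, adjusted p = 0.0373 from edgeR), a change of -33.6%. For NE/Ovx against Sham the value was -0.36 (SE 0.14, adjusted p = 0.197 from edgeR), and for RE/Ovx against NE/Ovx -0.23 (95% interval -0.55 to 0.09, adjusted p = 0.968 from edgeR). The RE/Ovx call was lost without RE/Ovx rat 5 (-0.47, adjusted p = 0.129 from edgeR) or RE/Ovx rat 8 (-0.67, adjusted p = 0.0808 from edgeR). It was lost too without Sham rat 7 (-0.45, adjusted p = 0.0913 from edgeR) or Sham rat 8 (-0.62, adjusted p = 0.0617 from edgeR). Other settings that lost the call were edgeR on the RE/Ovx and Sham rats alone (adjusted p = 0.0751), library totals (0.0534) and limma on log2(FPKM + 1) (0.0676).

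Cyba encodes the chain that pairs with both NOX2 and NOX4. Its levels were 61.8, 57.3 and 70.5 FPKM in RE/Ovx rats 3, 5 and 8, 75, 68.1 and 73.1 FPKM in NE/Ovx rats 6, 8 and 9, and 93.2, 81.9 and 67 FPKM in Sham rats 7, 8 and 12. Sham rat 12 lay inside the RE/Ovx range, so the groups overlapped on FPKM; in CPM, where RE/Ovx spanned 39.7 to 47.3 and Sham 48 to 67.7, they did not. The log2 fold change was -0.42 for RE/Ovx against Sham (95% interval -0.70 to -0.13, adjusted p = 0.0737 from edgeR), which did not pass. It was -0.20 for NE/Ovx against Sham (adjusted p = 0.4 from edgeR) and -0.21 for RE/Ovx against NE/Ovx (adjusted p = 0.968 from edgeR).

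Ncf1 encodes the organizer that brings the cytosolic complex to the membrane core. It was at 94, 67.1 and 83.4 FPKM in RE/Ovx rats 3, 5 and 8, 104, 102 and 86.4 FPKM in NE/Ovx rats 6, 8 and 9, and 113, 132 and 139 FPKM in Sham rats 7, 8 and 12. All 3 Sham rats stood above all 6 ovariectomized rats, while the RE/Ovx and NE/Ovx ranges overlapped. Ncf1 fell in RE/Ovx against Sham by 0.71 on the log2 scale (SE 0.13, 95% interval -1.01 to -0.41, adjusted p = 0.0172 from edgeR), a change of -38.9%. NE/Ovx against Sham gave -0.43 (SE 0.13, adjusted p = 0.119 from edgeR), and DESeq2 called it (adjusted p = 0.043). RE/Ovx against NE/Ovx gave -0.28 (95% interval -0.58 to 0.02, adjusted p = 0.942 from edgeR).

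Ncf4 encodes the cytosolic subunit that binds a phosphoinositide of the phagosome membrane. Its levels were 31.2, 25.6 and 33 FPKM in RE/Ovx rats 3, 5 and 8, 38.4, 49.2 and 36.5 FPKM in NE/Ovx rats 6, 8 and 9, and 41.1, 51.6 and 49.1 FPKM in Sham rats 7, 8 and 12. The RE/Ovx rats were below all others, and NE/Ovx and Sham overlapped. Ncf4 fell in RE/Ovx against Sham by 0.72 on the log2 scale (SE 0.13, 95% interval -1.02 to -0.42, adjusted p = 0.017 from edgeR), a change of -39.2%. For RE/Ovx against NE/Ovx it had the smallest unadjusted p of the 6 members, with a log2 fold change of -0.49 (SE 0.13, 95% interval -0.79 to -0.19), but it did not pass (adjusted p = 0.921 from edgeR). NE/Ovx against Sham gave -0.23 (SE 0.13, adjusted p = 0.359 from edgeR). Without RE/Ovx rat 5 or RE/Ovx rat 8, the RE/Ovx against Sham calls of both cytosolic genes were lost. The log2 fold change of Ncf1 was -0.6 without RE/Ovx rat 5 (adjusted p = 0.0675 from edgeR) and -0.713 without RE/Ovx rat 8 (adjusted p = 0.0693 from edgeR). That of Ncf4 was -0.631 without RE/Ovx rat 5 (adjusted p = 0.0686 from edgeR) and -0.778 without RE/Ovx rat 8 (adjusted p = 0.0582 from edgeR).

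Rac2 is the Rac GTPase of blood cells, and it also controls the actin skeleton, so its RNA is not particular to the oxidase. It was at 160, 139 and 174 FPKM in RE/Ovx rats 3, 5 and 8, 176, 173 and 169 FPKM in NE/Ovx rats 6, 8 and 9, and 212, 198 and 153 FPKM in Sham rats 7, 8 and 12. Sham rat 12 was the second lowest of the 9 rats, below all NE/Ovx rats. The log2 fold changes of -0.32 for RE/Ovx against Sham (95% interval -0.60 to -0.04, adjusted p = 0.147), -0.16 for NE/Ovx against Sham (adjusted p = 0.512) and -0.16 for RE/Ovx against NE/Ovx (adjusted p = 0.97) did not pass in edgeR.

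Nox4 had few counts: 37, 64 and 115 in RE/Ovx rats 3, 5 and 8, 46, 62 and 63 in NE/Ovx rats 6, 8 and 9, and 23, 12 and 39 in Sham rats 7, 8 and 12. Counting error alone gives the lowest, Sham rat 8, an exact Poisson 95% interval of 6.2 to 21 counts, and the highest, RE/Ovx rat 8, one of 94.9 to 138. In FPKM these were 0.638, 1.26 and 1.96 in RE/Ovx, 0.862, 1.11 and 0.961 in NE/Ovx, and 0.387, 0.244 and 0.807 in Sham tibias. The NE/Ovx rats were all above the Sham rats, whereas RE/Ovx rat 3 lay below Sham rat 12. The coefficient of variation was 51.5% in RE/Ovx, 12.6% in NE/Ovx and 61% in Sham, against 1.97% to 17.5% for the phagocyte subunits.
The log2 fold change of Nox4 was 1.35 for RE/Ovx against Sham (SE 0.47, 95% interval 0.31 to 2.40, adjusted p = 0.104 from edgeR). It was 0.99 for NE/Ovx against Sham (95% interval -0.06 to 2.04, adjusted p = 0.271 from edgeR) and 0.36 for RE/Ovx against NE/Ovx (95% interval -0.62 to 1.35, adjusted p = 0.977 from edgeR). None of these passed in edgeR. The RE/Ovx against Sham value was 0.93 without RE/Ovx rat 8 and 1.92 without Sham rat 12, and it passed without RE/Ovx rat 3 (adjusted p = 0.037 from edgeR) and in DESeq2 (adjusted p = 0.0396). The RE/Ovx against NE/Ovx value was -0.07 without RE/Ovx rat 8.

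**Figure D2:**
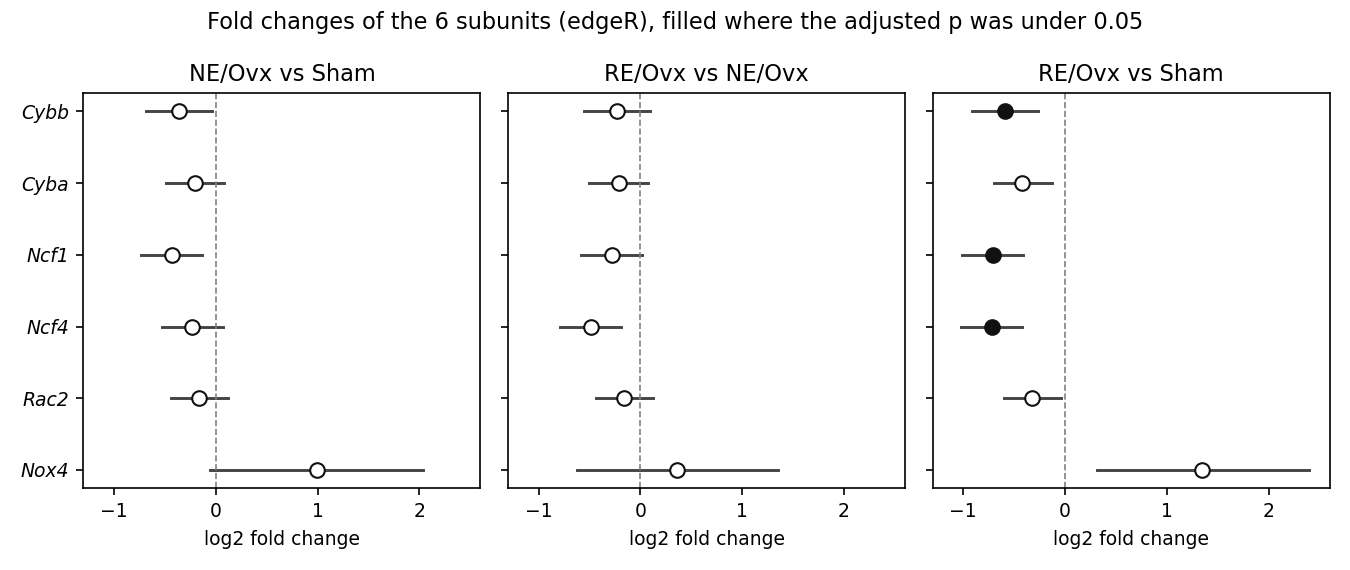
Log2 fold change (x axis) of the 6 subunits (rows) in the 3 comparisons, as points with 95% intervals from edgeR; filled points passed an adjusted p of 0.05. Only Cybb, Ncf1 and Ncf4 in RE/Ovx against Sham are filled, and the Nox4 intervals are several times wider than the others.

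By count, 3 of 6 members fell in RE/Ovx against Sham and 0 rose, where 3.06% of the 14520 tested genes fell and 5% rose. For NE/Ovx against Sham 0 members passed in edgeR, where 0.2% of tested genes fell and 1.03% rose; 2 members had an unadjusted p under 0.05, as had 2975 genes, and DESeq2 called 1, Ncf1, among 334 genes lower and 657 higher. For RE/Ovx against NE/Ovx 0 members passed, with 0% of tested genes called lower and 0% higher by edgeR; 1 member, Ncf4, had an unadjusted p under 0.05, as had 767 genes, and DESeq2 called 0 members. The count of members called in either direction for RE/Ovx against Sham was 5 with DESeq2, 5 without Sham rat 12 and 4 without RE/Ovx rat 3. It was 0 without RE/Ovx rat 5 or RE/Ovx rat 8. Nox4, which was higher, was among those called with DESeq2 (log2 fold change 1.34) and without RE/Ovx rat 3 (1.67). The other members called in these fits were lower. Of all genes, DESeq2 called 777 lower and 1150 higher in this comparison, and edgeR with all rats 445 and 726. Without Sham rat 12, 345 of 14726 tested genes fell and 422 rose, and without RE/Ovx rat 3, 544 of 14688 fell and 1205 rose. Without RE/Ovx rat 5, 24 of 14692 fell, and without RE/Ovx rat 8, 36 of 14659 fell.

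The study's own thresholds combine a p of less than 0.05 before adjustment and a fold outside 0.83 to 1.2. They were applied here to the edgeR values, whereas the study used DESeq2, so the counts are not the study's calls. By these thresholds 5 members were lower and Nox4 was higher in RE/Ovx against Sham, where 9.17% of tested genes were lower and 14% higher. In NE/Ovx against Sham the 2 members Cybb and Ncf1 were lower and 0 higher (6.52% and 11.3% of tested genes). In RE/Ovx against NE/Ovx only Ncf4 was lower and 0 were higher (3.15% and 1.54%). By FPKM ranges that did not overlap, 3 members were lower and 0 higher in RE/Ovx against Sham (8.84% and 18.3% of tested genes), 2 were lower and 1, Nox4, higher in NE/Ovx against Sham (8.55% and 15.9%), and 1 was lower and 0 higher in RE/Ovx against NE/Ovx (5.01% and 6.48%). In CPM, 3 members were lower in RE/Ovx against NE/Ovx, Cybb and Rac2 beside Ncf4, where 6.84% of tested genes were, and 4 were lower in RE/Ovx against Sham, Cyba added, where 13% were.
The median log2 fold change of the 5 phagocyte subunits was -0.59 for RE/Ovx against Sham, -0.23 for NE/Ovx against Sham and -0.23 for RE/Ovx against NE/Ovx. All tested genes had medians of -0.008, 0.003 and 0.008 in these comparisons. The comparisons share their groups, so the common sign is not independent evidence.

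Ratios within a rat, which library scaling leaves unchanged, showed that the members did not keep one proportion. Cybb FPKM were 199, 75.9 and 68.9 times those of Nox4 in RE/Ovx rats 3, 5 and 8, 165, 124 and 136 times in NE/Ovx rats 6, 8 and 9, and 518, 684 and 181 times in Sham rats 7, 8 and 12. The NE/Ovx rats were all below the Sham rats, and RE/Ovx rat 3 lay above Sham rat 12. Rac2 was at 1.27 to 1.46 times Cybb in RE/Ovx, 1.24 to 1.29 times in NE/Ovx and 1.05 to 1.19 times in Sham tibias, so the Sham rats had less Rac2 RNA for their Cybb RNA than any ovariectomized rat. Cyba to Cybb was 0.489 to 0.601 in RE/Ovx, 0.495 to 0.557 in NE/Ovx and 0.459 to 0.49 in Sham, with RE/Ovx rat 3 reaching the Sham range. Ncf4 to Rac2 was 0.184 to 0.194 in RE/Ovx, 0.216 to 0.284 in NE/Ovx and 0.194 to 0.32 in Sham tibias. These ratios were not tested.

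The Sham rats split the phagocyte subunits by their order. Cybb, Cyba and Rac2 were highest in Sham rat 7 and lowest in Sham rat 12, as was the neutrophil marker level. Ncf1 ran the other way, lowest in Sham rat 7 and highest in Sham rat 12, and Ncf4 was also lowest in Sham rat 7. The ratio of Ncf1 to Cybb was accordingly 0.564, 0.791 and 0.951 in Sham rats 7, 8 and 12, against 0.619 to 0.743 in RE/Ovx and 0.658 to 0.742 in NE/Ovx rats.

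The genes most like each member were those with the highest Pearson r of log2 CPM over the 9 rats among 13094 genes, a description over 9 points that share libraries and groups. For Cybb, genes among the closest 3 were Hp, which encodes haptoglobin (r = 0.985), and Clec7a, a receptor for fungal glucans (r = 0.979). For Cyba they were Hmgn2, a nucleosome-binding protein (r = 0.977), Lcn2, a neutrophil granule protein (r = 0.975), and Arpc1b, of the actin-branching complex (r = 0.974). Rac2 was most like Prtn3, a granule protease (r = 0.974), Vamp7, a vesicle fusion protein (r = 0.974), and Mpo, the myeloperoxidase that turns hydrogen peroxide into hypochlorous acid (r = 0.967).
Ncf1 was most like Camkk1, a kinase of calcium signalling (r = 0.992), Ptpn7, a tyrosine phosphatase of blood cells (r = 0.989), and Cmtm6, a membrane protein (r = 0.987). Ncf4 was most like Dock5, an exchange factor for Rac (r = 0.993), Alox5, the lipoxygenase that starts leukotriene synthesis (r = 0.989), and Gpr55, a lipid receptor (r = 0.985). For Nox4 they were Boc, a hedgehog co-receptor (r = 0.978), and the transcription factor genes Creb5 (r = 0.977) and Etv1 (r = 0.972). No gene was among the top 3 of more than 1 member.

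Other genes of the oxidase family were listed beside the members. Of 13 such genes in the list used, 8 had enough counts to test; Nox3 was at 0 in all rats, and Sh3pxd2a was the only 1 of the 8 called in edgeR. Sh3pxd2a, a scaffold of podosomes built of the same domain types as the Ncf1 protein, was at 16, 25.4 and 25.4 FPKM in RE/Ovx rats 3, 5 and 8, 21.6, 22.2 and 17.9 FPKM in NE/Ovx rats 6, 8 and 9, and 9.64, 11.8 and 10.1 FPKM in Sham rats 7, 8 and 12. It rose in RE/Ovx against Sham (log2 fold change 1.02, SE 0.17, adjusted p = 0.0129 from edgeR) and in NE/Ovx against Sham (0.93, SE 0.17, adjusted p = 0.0331), opposite in sign to Ncf1 in both. The Sh3pxd2a calls were lost without RE/Ovx rat 5 (adjusted p = 0.0537) or RE/Ovx rat 8 (0.0562), and for NE/Ovx without any 1 of the rats but Sham rat 8 (0.0653 to 0.118).

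Receptors and signalling proteins that trigger the oxidase in phagocytes were listed next. Of 24 tested, 8 fell and 0 rose in RE/Ovx against Sham, with a median log2 fold change of -0.30, and 0 passed in NE/Ovx against Sham (median -0.19) or RE/Ovx against NE/Ovx (median -0.21) in edgeR. Fpr1, a receptor for bacterial formyl peptides, was at 11.2 to 16.5 FPKM in RE/Ovx, 18.1 to 19.7 FPKM in NE/Ovx and 26.5 to 32.2 FPKM in Sham tibias, with no overlap between the groups. It fell by 1.12 on the log2 scale in RE/Ovx against Sham (SE 0.14, adjusted p = 0.00645 from edgeR), more than any member, and was at -0.69 in NE/Ovx against Sham (adjusted p = 0.0505). Its relative Fpr2 (-0.78), Clec7a (-0.81) and Tlr2, a receptor for bacterial lipoproteins (-0.69), also fell in RE/Ovx against Sham.
Of 10 myeloid transcription factors, 3 fell in RE/Ovx against Sham: Cebpe, needed for late granulocyte maturation (-0.61), Cebpb (-0.59) and Cebpd (-0.59), each with adjusted p from 0.0276 to 0.0381 in edgeR. Of 10 genes of NADPH supply, 4 fell in RE/Ovx against Sham and 0 rose. Pgd, which makes NADPH in the pentose phosphate pathway, was at -0.55, Nadk, which makes NADP from NAD, at -0.44, Me1, the cytosolic malic enzyme, at -0.43 and Me2, a mitochondrial malic enzyme, at -0.41 (adjusted p from 0.0274 to 0.0442 in edgeR).
Of 25 genes that remove superoxide and peroxide, 2 fell in RE/Ovx against Sham: Gsr, glutathione reductase (-0.49, adjusted p = 0.0175), and Sod2, the mitochondrial superoxide dismutase (-0.72, adjusted p = 0.0357). The peroxidases Mpo (-0.60, adjusted p = 0.106) and Epx (-0.74, adjusted p = 0.285) did not pass. Of these named receptors, factors and enzymes, Fpr1 alone kept its call without RE/Ovx rat 5, and Fpr1 and Clec7a alone without RE/Ovx rat 8. Some calls were lost more widely. Cebpd lost its call when any 1 rat was left out (adjusted p from 0.0562 to 0.126 in edgeR). Of these fits, Sod2 kept its call only without Sham rat 12 (adjusted p = 0.0434 from edgeR). Me1, Me2 and Nadk each lost theirs in 9 of the alternatives and kept it in 6. Leaving out RE/Ovx rat 5 or RE/Ovx rat 8, an alternative chosen after seeing the data, left 1 or 2 of the 24 trigger genes called lower and 0 of the transcription factors, NADPH supply and removal genes. No gene of these lists passed in RE/Ovx against NE/Ovx.

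**Figure D3:**
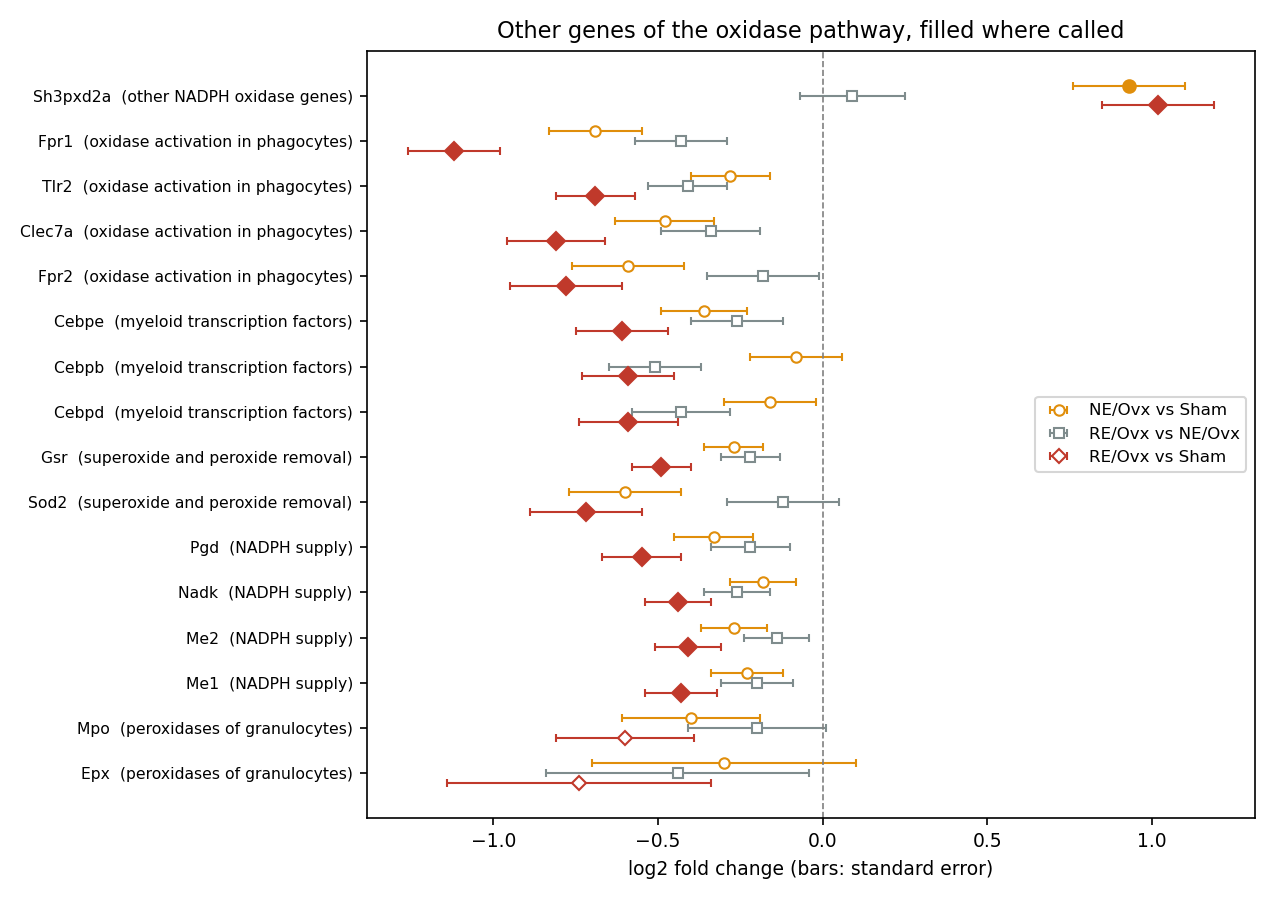
Log2 fold change (x axis) with its standard error for the other genes of the oxidase pathway named in the text, in the 3 comparisons; filled symbols passed an adjusted p of 0.05 in edgeR. Apart from Sh3pxd2a, the filled symbols lie at negative values and belong to RE/Ovx against Sham, from -0.41 for Me2 to -1.12 for Fpr1.

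Markers of the cells that carry the phagocyte oxidase were set beside it. Of 15 neutrophil markers tested, 9 fell in RE/Ovx against Sham and 0 rose, with a median log2 fold change of -0.73; 0 passed in NE/Ovx against Sham (median -0.50) and RE/Ovx against NE/Ovx (median -0.27), and no marker of the list was at 0 in any rat. Without RE/Ovx rat 5, or without RE/Ovx rat 8, 2 of these markers fell. The mean level of the list, as log2 CPM centred on the 9 rats, was -0.23, -0.72 and -0.10 in RE/Ovx rats 3, 5 and 8, -0.01, -0.12 and -0.06 in NE/Ovx rats 6, 8 and 9, and 0.69, 0.40 and 0.15 in Sham rats 7, 8 and 12. RE/Ovx rat 5, the lowest rat for all 5 phagocyte subunits, was also lowest here. The part of neutrophil content in the subunits' values was not tested.
Of 13 monocyte and macrophage markers tested, 1 fell and 1 rose in RE/Ovx against Sham, with medians of -0.02 for RE/Ovx against Sham, 0.06 for NE/Ovx against Sham and -0.12 for RE/Ovx against NE/Ovx. Their summed level was 3171 to 3691 CPM in RE/Ovx, 4101 to 4925 CPM in NE/Ovx and 4808 to 7316 CPM in Sham tibias, and Marco was at 0 in all rats. The mean level of the list, as centred log2 CPM, overlapped between the groups. It was -0.11 to 0.01 in RE/Ovx, -0.11 to 0.22 in NE/Ovx and -0.44 to 0.4 in Sham tibias. Of 8 osteoclast markers tested, 1 fell and 0 rose in RE/Ovx against Sham (median 0.14), with summed levels of 791 to 1605 CPM in RE/Ovx, 1213 to 1520 CPM in NE/Ovx and 776 to 1246 CPM in Sham tibias; Dcstamp was at 0 in some rats. The single calls of these lists were lost without RE/Ovx rat 5 or RE/Ovx rat 8.
The megakaryocyte and erythroid lists, also of the marrow, had lower medians in the ovariectomized groups than in Sham tibias. All 10 megakaryocyte markers were lower in RE/Ovx and in NE/Ovx than in Sham tibias, with medians of -0.41 and -0.51, and 3 and 0 of them fell. Their summed levels were 977 to 1175 CPM in RE/Ovx, 950 to 1121 CPM in NE/Ovx and 1176 to 1630 CPM in Sham tibias. All 10 erythroid markers had negative values in both comparisons, with medians of -0.29 and -0.38, and 0 passed in edgeR. No megakaryocyte call was left without RE/Ovx rat 5 or RE/Ovx rat 8. In RE/Ovx against NE/Ovx, by contrast, 7 of 10 megakaryocyte markers (median 0.04) and 9 of 10 erythroid markers (median 0.09) had positive values.

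**Figure D4:**
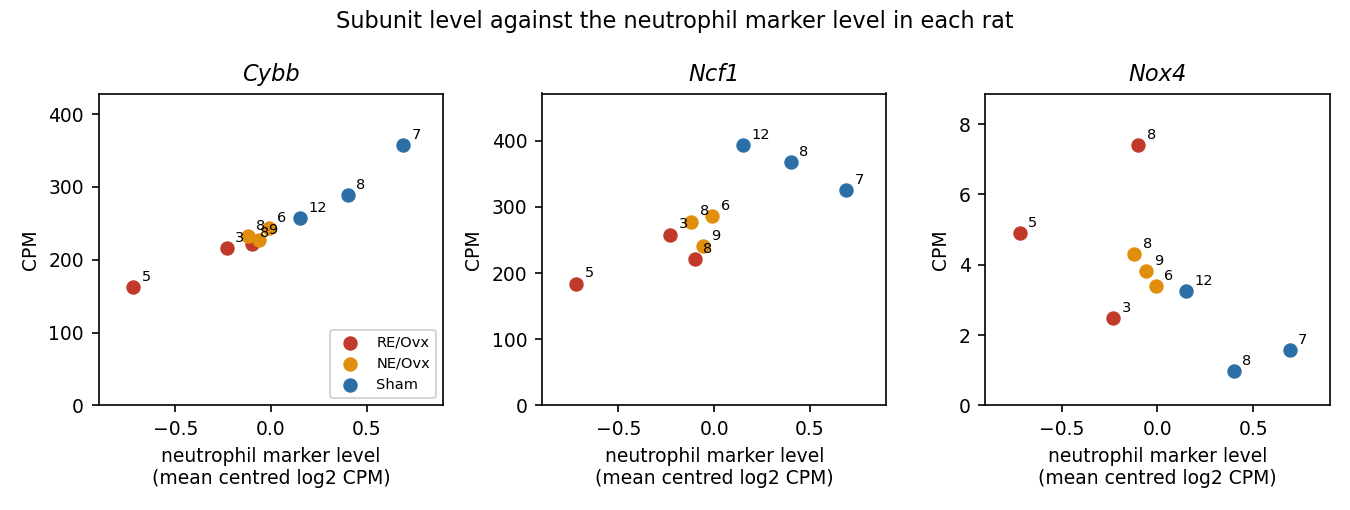
CPM of Cybb, Ncf1 and Nox4 (y axes, from 0) against the mean centred log2 CPM of the neutrophil markers (x axis), 1 point per rat with its number, coloured by group. Cybb orders the rats almost as the neutrophil markers do, Ncf1 is highest in Sham rat 12 and not in Sham rat 7, and Nox4 is lowest in Sham rats 7 and 8.

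Beside Nox4, which is not a phagocyte gene, the markers of several non-blood cells, and those of B cells, had higher medians in the ovariectomized groups. All 10 adipocyte markers rose in RE/Ovx against Sham (median log2 fold change 3.06) and 7 of 10 in NE/Ovx against Sham (median 2.43), with summed levels of 543 to 765 CPM in RE/Ovx, 401 to 530 CPM in NE/Ovx and 101 to 224 CPM in Sham tibias. Of 9 chondrocyte markers tested, 5 rose in RE/Ovx against Sham (median 1.15) and 2 in NE/Ovx against Sham (median 1.02), with summed levels of 2230 to 2505 CPM in RE/Ovx, 1733 to 2671 CPM in NE/Ovx and 781 to 1461 CPM in Sham tibias. Of 10 osteoblast markers 2 rose in each of these comparisons, with medians of 0.68 and 0.52. Without RE/Ovx rat 5, or without RE/Ovx rat 8, 7 adipocyte, 2 chondrocyte and 2 osteoblast markers rose in RE/Ovx against Sham. B cell markers had medians of 1.21 for RE/Ovx and 1.14 for NE/Ovx against Sham, with summed levels of 769 to 932 CPM in RE/Ovx, 619 to 1057 CPM in NE/Ovx and 192 to 535 CPM in Sham tibias; 2 of 10 rose in RE/Ovx against Sham, and 0 without RE/Ovx rat 5 or RE/Ovx rat 8. RE/Ovx rat 3, the lowest of its group for Nox4, was also the lowest of its group for the adipocyte, chondrocyte and osteoblast lists. But Sham rat 12, the highest Sham rat for Nox4, was the lowest Sham rat for chondrocyte and osteoblast markers. Smooth muscle and pericyte markers had medians of 0.62 for RE/Ovx and 0.51 for NE/Ovx against Sham. Their mean centred log2 CPM was -0.47, 0.10 and 0.52 in RE/Ovx rats 3, 5 and 8. In Sham rats 7, 8 and 12 it was -0.25, -0.75 and -0.08, and both groups had the order of Nox4. In NE/Ovx rats 6, 8 and 9 it was 0.60, 0.36 and -0.03, another order than that of Nox4. Endothelial and marrow stromal medians were 0.39 and 0.45 for RE/Ovx and 0.16 and 0.10 for NE/Ovx against Sham. The part of these cells in the Nox4 values was not tested.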

How the data were processed

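RNA from 9 rat tibias, 3 each of RE/Ovx, NE/Ovx and Sham, was analysed. For each rat the authors deposited whole-number read counts per gene and FPKM values, whose ratio to the counts differs between libraries by 1 factor (largest relative spread 2.7e-10). Per the submitters' processing notes, the tools were Bowtie2, DESeq, HISAT2, StringTie and Trimmomatic, and the build was Rnor_6.0, with no versions given. Strand use in counting is not given in the sources read, so overlapping and antisense transcripts may share reads.

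Counts were tested in R 4.3.3 with edgeR 4.0.16 (filterByExpr, TMM factors, quasi-likelihood test), with all 9 libraries in 1 fit on group alone. Benjamini-Hochberg adjustment ran over 14520 genes, with a threshold of 0.05. The fit was also run on simulated counts in which 200 genes were changed. Its rates of recovery are not given here, so no power for the members' fold changes can be read from it. Log2 CPM used a prior count of 2. Groups of 3 cannot reach an exact permutation p under 0.1, so none was used. Alternatives were DESeq2 1.42.0, limma 3.58.1 on log2(FPKM + 1) or log2(FPKM + 0.1) with and without an FPKM minimum of 1 in 3 libraries, no filter on low counts, a minimum of 10 counts in every library, median-of-ratios factors, unscaled library totals, the 2 groups alone, and leaving out each rat. Intervals on counts cover counting error only.

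The members, 6 pathway lists and 14 marker lists were chosen with earlier results of these data known. Named were all members, in each pathway list up to 4 genes with the smallest p among those passing (or 2 where none passed), and the 3 genes most correlated with each member among those with an average log2 CPM of at least 1. Marker lists with no value in the text are not described here. Some results for single genes are left out of the lists and of the text. The labels give each rat as a separate sample, and rat numbers are those of the sample titles. The headers inside the deposited tables number the rats otherwise, and those numbers were not used. Promoters came from RefSeq GRCr8, an assembly other than the one used for alignment, and only there were coordinates taken.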

Additional observations from a re-analysis of the deposited data

How the results depend on the processing

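The number of members called for NE/Ovx against Sham was 0 in edgeR and 1 (Ncf1) with DESeq2, and it was 0 to 0 when a rat was left out. For RE/Ovx against NE/Ovx it was 0 under every alternative run. For RE/Ovx against Sham it was 3 in edgeR, 5 with DESeq2 (Cybb, Cyba, Ncf1, Ncf4 and Nox4), and 0 to 5 when a rat was left out, with 0 without RE/Ovx rat 5 or RE/Ovx rat 8 and 5 without Sham rat 12 (Cybb, Cyba, Ncf1, Ncf4 and Rac2); the cause was not tested. Each of these fits has fewer rats. Ncf1 and Ncf4 passed in 9 of 9 other settings for RE/Ovx against Sham and in 4 of 6 with a rat left out, and Cybb in 4 of 9 and 2 of 6. The log2 fold change of Nox4 for RE/Ovx against NE/Ovx was -0.07 to 0.68 when a rat was left out, and -0.0666 without RE/Ovx rat 8, where the sign turned. No other fold change of a member, and none of a called pathway gene named in the text, changed sign under the alternatives run. Over all genes DESeq2 called 1927 in RE/Ovx and 991 in NE/Ovx, each against Sham, and 7 between the ovariectomized groups, where edgeR called 1171, 178 and 0. On log2(FPKM + 1), Nox4 in RE/Ovx against Sham was at 0.60, since a pseudocount of 1 is near its level. No paired analysis was run because the groups were made of different rats, divided at random. A number shared between groups in the sample titles names different rats, and the other numbering of the rats was not used.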
